A study of Mus musculus with 7 samples.

Results

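The CC chemokine ligands described here are Ccl3, Ccl4, Ccl6 and Ccl9, 4 genes of the 28719 gene names listed in any of the count files of this study of mouse neutrophils. They were chosen by name, and their values were read in neutrophils alone, 17466 of the 21763 cells in the files. In the healthy tissues a cell was counted as a neutrophil when S100a8 and S100a9, the calprotectin transcripts that neutrophils carry in abundance, made up at least 3% of its unique molecular identifiers (UMIs, 1 per captured transcript) and it held no UMI of Nkg7, a transcript of NK and cytotoxic T cells. In the inflammation library it was counted when the class that the authors assigned from ImmGen reference populations began with GN, for granulocyte.

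CC chemokines are small secreted proteins that draw leukocytes along a gradient by binding G-protein-coupled receptors. Ccl3 and Ccl4 (MIP-1α and MIP-1β) are made on activation by myeloid and lymphoid cells, and Ccl3 acts on the receptor Ccr1. Ccl6 (C10) and Ccl9 (MIP-1γ) are ligands of Ccr1 found in rodents and are expressed in the myeloid lineage. Neutrophils build their granules while they mature in the bone marrow, then enter the blood, and on reaching an inflamed site they become a source of chemokines themselves.

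All cells came from male wild-type C57BL/6J mice and were sorted as CD11b+ Ly6G+ cells that excluded propidium iodide, with 3 mice pooled for each library or condition. Blood, bone marrow and spleen of untreated mice were collected in 2 runs, from mice aged 6 weeks in run 1 and 8 weeks in run 2, so that run and age cannot be told apart. A further library held 5 pools of mice aged 8 weeks, marked with hashtag antibodies: blood of untreated mice, blood and joint lavage of mice with arthritis at day 7 after transfer of serum from arthritic K/BxN mice, lung lavage 3 h after 25 ng of interleukin-1β (IL-1β) given into the nose, and peritoneal lavage 3 h after 25 ng given into the peritoneum. Each inflamed condition was thus a single pool, and no test between conditions could be made.

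The 6 healthy libraries gave 1125 to 3666 neutrophils with a median of 774 to 2602 UMIs per cell, and the 5 pools of the inflammation library gave 292 to 2857 neutrophils with a median of 2527 to 3681 UMIs. Levels are given as UMIs per 1000000 UMIs (CPM) after summing the neutrophils of a library or pool. A UMI tags the end of a transcript, so CPM of different genes are compared per captured transcript and need no correction for length. They are printed with exact Poisson 95% intervals that cover counting error only. All 14 neutrophil markers were detected in all 11 sums. The 11 markers of monocytes and macrophages summed to 267 to 1349 CPM, highest in bone marrow and in the spleen of run 1, and to 283 to 389 CPM in the inflammation pools, where Nkg7-positive cells numbered 0 or 1 and basophil markers were at 0 to 0.0971 CPM. The spleen library of run 2 stood apart in holding 1388 B cells and only 1989 neutrophils among its 4353 cells. No pair of libraries shared more than 36 cell barcodes.

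All 4 genes lie on mouse chromosome 11, within 91.8 kb (GRCm38, GENCODE annotation). Ccl9 occupies 83572919 to 83578636 and Ccl6 83587882 to 83593087, both on the minus strand with 4 exons, and 9.2 kb separate them. Ccl3 (83647844 to 83649355, minus strand) and Ccl4 (83662584 to 83664683, plus strand) have 3 exons each and are divided by 13.2 kb. A gap of 54.8 kb lies between Ccl6 and Ccl3.

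Because Ccl3 and Ccl4 differed in expression from Ccl6, as described below, the 250 bases upstream of the RefSeq start are shown for the 3 members with an entry (GRCm38.p6, chr11:83649379-83649628 for Ccl3, chr11:83593088-83593337 for Ccl6 and chr11:83578637-83578886 for Ccl9, all minus strand, written 5′ to 3′). Capitals mark matches, on either strand, to 4 motifs. The AP-1 motif was searched as TGANTCA. The C/EBP motif was searched as TTNNGNAA. The PU.1 motif was searched as GAGGAA, and the TATA motif as TATAAA.
Ccl3: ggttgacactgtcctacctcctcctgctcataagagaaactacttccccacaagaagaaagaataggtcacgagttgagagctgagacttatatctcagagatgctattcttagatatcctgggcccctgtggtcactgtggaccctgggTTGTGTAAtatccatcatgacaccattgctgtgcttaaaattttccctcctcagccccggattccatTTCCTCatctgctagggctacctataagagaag
Ccl6: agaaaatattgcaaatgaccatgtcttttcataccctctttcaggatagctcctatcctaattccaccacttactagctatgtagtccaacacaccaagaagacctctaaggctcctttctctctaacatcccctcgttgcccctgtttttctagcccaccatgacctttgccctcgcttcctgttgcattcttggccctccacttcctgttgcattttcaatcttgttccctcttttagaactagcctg
Ccl9: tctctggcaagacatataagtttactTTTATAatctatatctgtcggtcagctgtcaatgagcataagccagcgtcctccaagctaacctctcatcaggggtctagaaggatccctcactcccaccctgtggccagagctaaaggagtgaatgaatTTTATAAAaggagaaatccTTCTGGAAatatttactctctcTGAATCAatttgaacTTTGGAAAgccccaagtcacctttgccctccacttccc
The Ccl3 window held 1 C/EBP match, TTGTGTAA at 100 to 93 bases before the start, and 1 PU.1 match, TTCCTC at 33 to 28 bases. The Ccl9 window held 6 matches in all, 3 of them to the TATA motif, of which 2 overlap, 2 to the C/EBP motif and 1 to the AP-1 motif, TGAATCA at 53 to 47 bases. The Ccl6 window held none of these letters, but carried CTTCCTGTTGCATT, 14 bases, in 2 copies that begin 73 and 47 bases before the start. Among 32851 mouse promoters of the same length, 6.75% held the AP-1 motif, 36.8% the C/EBP motif, 23.3% the PU.1 motif and 12.4% the TATA motif. When aligned, the windows were 50.8% identical between Ccl3 and Ccl6, 47.4% between Ccl6 and Ccl9 and 46.8% between Ccl3 and Ccl9. The longest run that Ccl6 and Ccl9 shared was GCCCTCCACTTCC, of 13 bases, against 8 bases in each of the other pairs.

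Ccl6 was by far the most abundant of the 4 transcripts in healthy neutrophils. It gave 4722 CPM in blood of run 1 and 5361 CPM in blood of run 2. In bone marrow it gave 1351 and 1451 CPM, and in spleen 1907 and 4604 CPM. The bone marrow libraries were lowest, the blood libraries highest, and the spleen libraries lay between them and far from each other. Of the UMIs of the 4 members, Ccl6 held 98.7% to 99.6% in these 6 libraries.

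Ccl3, Ccl4 and Ccl9 were scarce there. Ccl4 gave 5.24 and 45.2 CPM in blood, 3.82 and 23.9 CPM in spleen, and no UMI and 5.81 CPM in bone marrow. Run 2 was above run 1 in each tissue, and marrow and blood overlapped, since marrow of run 2 exceeded blood of run 1. Ccl9 gave 23.96 and 21.0 CPM in blood, 4.58 and 8.85 CPM in spleen, and 5.501 and 9.45 CPM in bone marrow, so that both blood libraries stood above the other 4. Ccl3 was at 7.49 and 2.01 CPM in blood, at 1.31 and 1.02 CPM in bone marrow and at 3.12 CPM in spleen of run 2, each from 10 UMIs or fewer. Spleen of run 1 held no Ccl3 UMI and bone marrow of run 1 no Ccl4 UMI, which allows up to 1.14 CPM of Ccl3 and 0.786 CPM of Ccl4 by a limit of 3 UMIs.

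**Figure D1:**
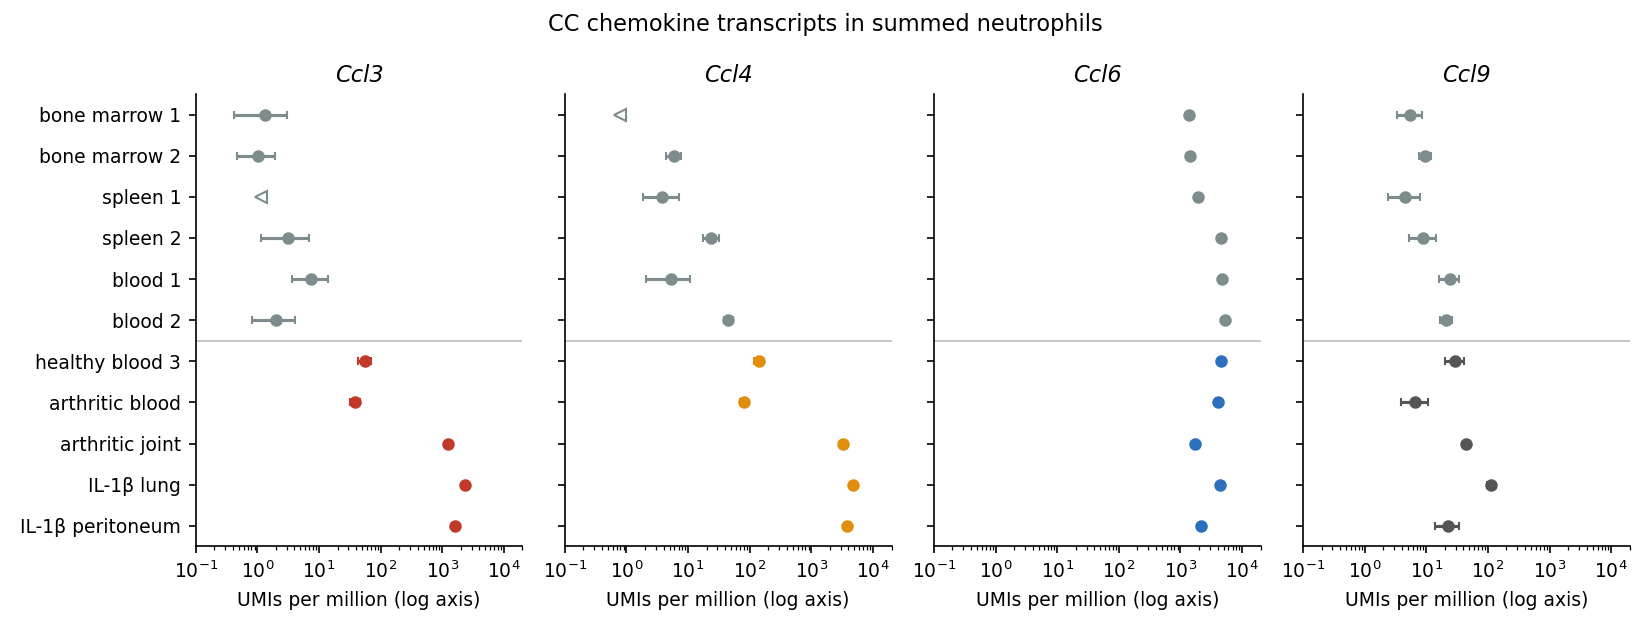
Level of each member in the summed neutrophils of 11 libraries and pools, in CPM on a log axis, with exact Poisson 95% intervals for counting error. Grey points are the 6 healthy libraries, coloured points the 5 pools of the inflammation library, and open triangles mark the limit where no UMI was seen. Ccl3 and Ccl4 exceed 1000 CPM in joint, lung and peritoneum, whereas Ccl6 exceeds it in every sum.

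Bone marrow and blood were compared to ask which ligand transcripts differ between the site where neutrophils mature and the circulation, over the 6 libraries with run as a block. Ccl4 was lower in bone marrow than in blood by a log2 fold change of -2.77 ± 0.48 (SE, n = 2 libraries per tissue, adjusted p = 0.00971, edgeR's quasi-likelihood test with Benjamini-Hochberg adjustment). Ccl6 was lower by a log2 fold change of -1.497 ± 0.27 (edgeR, adjusted p = 0.0111), and Ccl9 by -1.199 ± 0.31 (edgeR, adjusted p = 0.0321). All 3 members that entered the test were therefore called lower in marrow, where 11.4% of 7539 tested genes were called lower, 10.3% higher and 21.7% in either direction. Ccl3 had too few UMIs to be tested.

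These calls rested on the pairing by run and on both blood libraries. Without the block for run, the adjusted p of edgeR's test was 0.106 for Ccl6, 0.306 for Ccl4 and 0.136 for Ccl9, at log2 fold changes of -1.51, -2.67 and -1.196. Leaving out blood of run 1 gave adjusted p = 0.188 for Ccl6, 0.112 for Ccl4 and 0.256 for Ccl9 by the same edgeR test, and leaving out blood of run 2 gave 0.124, 0.262 and 0.115. Ccl9 also lost its call without bone marrow of run 1 (edgeR, adjusted p = 0.113) and with DESeq2 (adjusted p = 0.309). In every one of these fits the direction was the same. A fit without a library leaves its tissue with 1, assumed to vary like the others.

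Spleen was compared with bone marrow and with blood to place the third tissue. Against spleen, none of the 3 members was called by edgeR in bone marrow, where 2.27% of genes were called (0.159% higher and 2.11% lower), with log2 fold changes of -1.99 ± 0.51 for Ccl4 (edgeR, adjusted p = 0.112), -0.88 ± 0.27 for Ccl6 (edgeR, adjusted p = 0.163) and 0.44 ± 0.36 for Ccl9 (edgeR, adjusted p = 0.595). DESeq2 did call Ccl6 in this comparison. With 1 library of bone marrow or spleen left out, and the remaining one assumed to vary like the rest, Ccl4 passed the threshold in each such fit, with edgeR's adjusted p between 0.00204 and 0.0409, and Ccl6 passed it without spleen of run 1 (edgeR, adjusted p = 0.0101). Between spleen and blood none was called, where edgeR called 0.0663% of genes and 800 had an unadjusted p under 0.05. The largest difference there was Ccl9, with a log2 fold change of -1.64 ± 0.36 in spleen (edgeR, adjusted p = 0.262), which passed the threshold without bone marrow of run 1, bone marrow of run 2 or spleen of run 2 (edgeR, adjusted p = 0.00168, 0.00238 and 0.00967). Without spleen of run 2, which leaves spleen of run 1 alone on the same assumption, Ccl6 had in spleen against blood a log2 fold change of -0.96 (edgeR, adjusted p = 0.0175).

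Within each healthy tissue, Ccl6 divided neutrophils by their granule transcripts. Cells were called granule-high when Camp, Ngp, Ltf and Lcn2, which encode proteins of the secondary granules, made up at least 1% of their UMIs, as is typical of less mature neutrophils. In granule-low cells of blood Ccl6 gave 6414 CPM in run 1 and 5574 CPM in run 2, against 483 and 832 CPM in granule-high cells. In bone marrow the same contrast was 6586 and 4849 CPM against 523 and 528 CPM. In spleen it was 7456 and 5284 CPM against 270.2 and 399.7 CPM. The levels of granule-low cells in the 3 tissues overlapped. Those of granule-high cells were lowest in spleen, and each lay far below every granule-low level.

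The difference was 3.64 ± 0.68 on the log2(CPM + 1) scale (mean ± SD over 6 libraries), and Ccl6 was higher in granule-low cells in 6 of 6 libraries (exact sign-flip permutation test, two-sided, p = 0.03125, the smallest that 6 libraries allow, 0.0625 after Benjamini-Hochberg adjustment over the 4 members). Each pool of mice gave all 3 tissues of its run, so these 6 libraries are not fully independent. Taking both the granule and the S100 transcripts out of the total left the log2 difference between 2.18 and 4.04. Granule-high cells were deeper, with a median of 2238 to 3547 UMIs against 766 to 1634 in granule-low cells, and the part of depth was not tested.

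Ccl9 followed the same direction in 6 of 6 libraries, by 2.97 ± 1.71 on the log2(CPM + 1) scale (exact sign-flip permutation test, p = 0.03125, adjusted p = 0.0625). It reached 33.5 and 22.0 CPM in granule-low cells of blood, where the granule-high cells held no UMI of it, so that the differences in blood depend on the pseudocount. In the other libraries the granule-high cells held 1 to 35 UMIs. For Ccl4 the difference was 2.57 ± 2.11 with 4 of 6 libraries higher in granule-low cells (exact sign-flip permutation test, p = 0.125, adjusted p = 0.167), and for Ccl3 it was 0.82 ± 1.30 (p = 0.1875 by the same exact permutation test). Both rest on few UMIs as well.

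The make-up of the tissues moved with the levels of Ccl6. Granule-high cells were 74.7% and 64.2% of marrow neutrophils, 47.6% and 4.02% of spleen neutrophils, and 12.7% and 1.53% of blood neutrophils in runs 1 and 2. The spleen library with many such cells was the one with less Ccl6. Among granule-low cells alone Ccl6 was no longer lower in bone marrow than in blood, with a log2 fold change of 0.33 (edgeR, adjusted p = 0.192), and it differed by 0.27 from spleen (edgeR, adjusted p = 0.324). Ccl4 and Ccl9 were not called between granule-low cells of marrow and blood either, at log2 fold changes of -0.61 (edgeR, adjusted p = 0.371) and 0.18 (edgeR, adjusted p = 0.800). Leaving out every cell with a UMI of a marker of another cell type gave a log2 fold change of 0.13 for Ccl6 in marrow against blood (edgeR, adjusted p = 0.643), and -1.78 for Ccl4 (edgeR, adjusted p = 0.00922). That choice also lowered granule-high cells to 30.4% and 28.9% of marrow neutrophils. It kept only 138 of 1164 and 619 of 3383 marrow neutrophils in runs 1 and 2, against 825 of 1287 and 2472 of 3666 in blood. Monocyte markers, mostly Ly6c2, were higher in the marrow sums, 1349 and 1020 CPM against 636 and 267 CPM in blood.

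**Figure D2:**
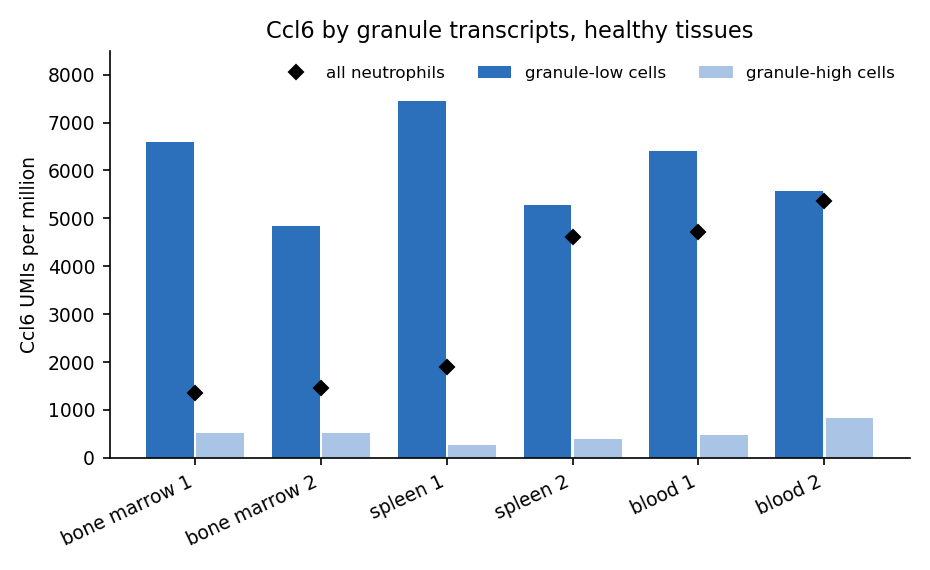
Ccl6 level (CPM) in granule-low cells (dark bars), granule-high cells (light bars) and all neutrophils (diamonds) of each healthy library. Granule-low cells reach 4849 to 7456 CPM in every tissue, and granule-high cells 270.2 to 832 CPM. The diamonds lie between the bars of their library.

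At an equal depth of 500 UMIs per cell, Ccl6 was seen in 81.0% and 83.3% of blood neutrophils, 53.5% and 81.0% of spleen neutrophils, and 38.3% and 43.5% of bone marrow neutrophils. Ccl4 was seen in at most 1.72% of cells of any healthy tissue and Ccl3 in at most 0.397%. Ccl6 was also found in cells that should lack it, in 14.3% of the 1388 B cells of the spleen of run 2 (median 1436 UMIs, 116 CPM) and in 44.0% of 75 B cells of the blood of run 2 (median 1523 UMIs, 443 CPM), against 89.4% and 91.2% of the neutrophils of those libraries at their own depth (medians of 774 and 826 UMIs). Whether these B-cell UMIs came from free RNA or from doublets was not tested. In those B cells of the spleen, Ccl3 was found in 0.216%, Ccl4 in 0.144% and Ccl9 in 0.144%, against 0.251%, 1.71% and 0.654% of the neutrophils. The Ccl3 shares of these spleen cells rested on 5 neutrophils and 3 B cells and are read as background.

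Few healthy cells accounted for the rarer ligands. In blood of run 2 the 157 Ccl4 UMIs lay in 97 cells, with at most 6 in a cell, and 25 cells held 50% of them. Of the 73 Ccl9 UMIs of that library, 12 cells held 50%. The 18624 Ccl6 UMIs of that library were spread over many more cells, 812 (22.1%) holding 50% of them, a contrast that the abundance of the genes largely fixes. Ccl3 and Ccl4 were found together in 2 of 3666 unthinned blood cells of run 2, in 2 of 3383 marrow cells and in 1 of 1989 spleen cells of that run, and in no neutrophil of run 1. The product of the shares would give 0.159, 0.0579 and 0.0855 cells in these blood, marrow and spleen cells of run 2. The observed counts were above these, but rest on 1 or 2 cells each.

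In inflamed tissue the order of the members was another. The blood of untreated mice in the inflammation library gave 55.1 CPM of Ccl3, 140 CPM of Ccl4, 4544 CPM of Ccl6 and 29.3 CPM of Ccl9. Blood of arthritic mice gave 38.6, 80.2, 4084 and 6.68 CPM in the same order. The 3 inflamed sites held 1246 to 2351 CPM of Ccl3 and 3204 to 4718 CPM of Ccl4, above both blood pools and all 6 healthy libraries. By the study's methods those 6 libraries were made with an earlier chemistry, so that a comparison with them also spans chemistries. The 5 pools were carried in 1 library, and the part of free RNA from inflamed cells in its blood values was not tested.

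Ccl3 reached 1246 CPM (95% interval 1225 to 1268) in the joint, 2351 CPM (2269 to 2435) in the lung and 1593 CPM (1514 to 1676) in the peritoneum. Against the blood of untreated mice these were ratios of 22.6 (17.6 to 29.5), 42.7 (33.2 to 55.8) and 28.9 (22.4 to 37.9). Ccl4, the more abundant of the pair in every pool, reached 3204, 4718 and 3772 CPM, which were ratios of 22.8 (19.5 to 26.8), 33.6 (28.7 to 39.6) and 26.9 (22.9 to 31.7). The intervals cover counting error only, so that differences between mice are not in them. Ccl3 and Ccl4 kept a near ratio to each other, with 0.389 Ccl3 UMIs per Ccl4 UMI in the joint, 0.498 in the lung and 0.422 in the peritoneum.

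Ccl6 did not follow them. It gave 1723 CPM in the joint and 2151 CPM in the peritoneum, ratios of 0.379 (0.368 to 0.391) and 0.473 (0.450 to 0.499) to the blood of untreated mice, while the lung, at 4440 CPM, had a ratio of 0.977 (0.941 to 1.01). The median gene also had a lower level in inflamed tissue, by a log2 ratio of -0.37 in the joint, -0.84 in the lung and -0.86 in the peritoneum. Relative to that median, Ccl6 stood at 0.490 in the joint and 1.75 in the lung, and in the peritoneum at 0.860, which is no longer a 2-fold difference. Ccl3 and Ccl4 relative to the median were at 29.2 to 76.3 and 29.5 to 60.1.

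Ccl9 was low in all 5 pools. It gave 44.1 CPM in the joint, 113 CPM in the lung and 22.3 CPM in the peritoneum against 29.3 CPM in the blood of untreated mice, ratios of 1.503 (1.06 to 2.21), 3.84 (2.62 to 5.79) and 0.759 (0.418 to 1.35). Only the lung value exceeded 50 CPM, and 3 of its 380 cells held 50% of the 149 UMIs.

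Counted by at least 2-fold and at least 50 CPM in 1 of the 2 pools, 2 members were higher and 1 lower in the joint, where 12.2% of 2882 genes were higher and 20.3% lower. In the lung 3 members were higher and none lower, against 14.4% and 44.7% of genes, and in the peritoneum 2 were higher and 1 lower, against 14.5% and 45.5% of genes. Blood of arthritic mice had no member past that size relative to blood of untreated mice, where 0.639% of genes were higher and 2.97% lower, and its ratios were 0.701 (0.507 to 0.976) for Ccl3, 0.571 (0.463 to 0.706) for Ccl4 and 0.899 (0.869 to 0.929) for Ccl6. Ccl9 had the lowest ratio of the 4 there, 0.228 (0.121 to 0.417), from 18 against 33 UMIs, and was left out of the count for being under 50 CPM in both pools. Within the arthritic mice the joint exceeded the blood by 32.3 (26.6 to 39.5) for Ccl3 and 39.95 (34.9 to 45.9) for Ccl4, with Ccl6 at 0.422 (0.412 to 0.432) and Ccl9, under 50 CPM in both, at 6.60 (4.13 to 11.2), in a comparison where 16% of genes were at least 2-fold higher and 8.42% lower.

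The lung and the peritoneum received the same dose of IL-1β and were sampled at the same time. Ccl3 was 1.48 times (1.39 to 1.57) and Ccl4 1.25 times (1.2001 to 1.30) as high in the lung, both under 2-fold. Without the 5% of cells richest in the ligand these ratios were 1.05 for Ccl3 and 0.935 for Ccl4. Ccl6 was 2.06 times (1.96 to 2.17) and Ccl9 5.06 times (3.19 to 8.42) as high in the lung, where 7.78% of genes were at least 2-fold higher and 8.66% lower. In the peritoneum 38.7% of cells passed the granule-high threshold, through Lcn2 alone, since none passed it on Camp, Ngp and Ltf. Without the granule-high cells of either pool the lung-to-peritoneum ratio of Ccl6 was 1.81, which is under 2-fold.

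Together the 4 ligands made up 6217 CPM in the joint, 11622 CPM in the lung and 7539 CPM in the peritoneum, against 4769 CPM in the blood of untreated mice. Ccl6 was 95.3% of their UMIs in that blood and 97.0% in arthritic blood. In joint, lung and peritoneum its part was 27.7%, 38.2% and 28.5%, while Ccl3 and Ccl4 together made up 71.6%, 60.8% and 71.2%. The highest of the 4 was thus Ccl6 in every blood, marrow and spleen sum and Ccl4 in the 3 inflamed sites. In the lung that order rested on few cells, since without the 5% of cells richest in each ligand Ccl6 gave 3641 CPM and Ccl4 2208 CPM.

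The share of producing cells was compared after thinning each cell to 1000 UMIs, which left out 61 to 155 shallower cells per pool. Ccl3 was seen in 39.4% of joint cells (exact binomial 95% interval 37.6 to 41.3), 44.1% of lung cells (38.2 to 50.02) and 50.2% of peritoneal cells (43.6 to 56.8), against 5.08% (3.04 to 7.92) in blood of untreated and 3.56% (2.29 to 5.25) in blood of arthritic mice. Ccl4 was seen in 45.0% (43.1 to 46.8), 42.3% (36.5 to 48.3) and 55.0% (48.3 to 61.5) of cells of the 3 sites, against 10.7% and 7.86% of the blood cells. The lung, which had the highest level of both ligands, did not have the highest share of cells that carried them, although the Ccl3 intervals of lung and peritoneum overlapped. These intervals, too, cover counting of cells in 1 pool and not differences between mice.

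At that thinned depth Ccl6 ran the other way, from 93.5% and 94.7% of blood cells to 61.9% of joint, 70.6% of peritoneal and 86.4% of lung cells. Ccl9 was seen in 3.67%, 0.742%, 3.69%, 1.30% and 6.99% of cells of untreated blood, arthritic blood, joint, peritoneum and lung. Without thinning the Ccl3 shares were 57.8% in joint, 58.4% in lung, 67.1% in peritoneum and 11.4% in either blood pool, so that the gap between tissue and blood was present at both depths for Ccl3. The Ccl6 shares were then 84.1% in untreated blood, 92.1% in arthritic blood, 82.3% in joint, 77.4% in peritoneum and 85.5% in lung. Untreated blood was thus close to joint and lung at full depth. Thinning had left out 155 of its 509 cells and 123 of 2857 joint cells. A second random draw gave 49.7% for Ccl3 in the lung and 59.3% for Ccl4 in the peritoneum, inside the binomial intervals given above. The files hold 4 cells of another class in the inflammation library, too few to measure free RNA there.

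**Figure D3:**
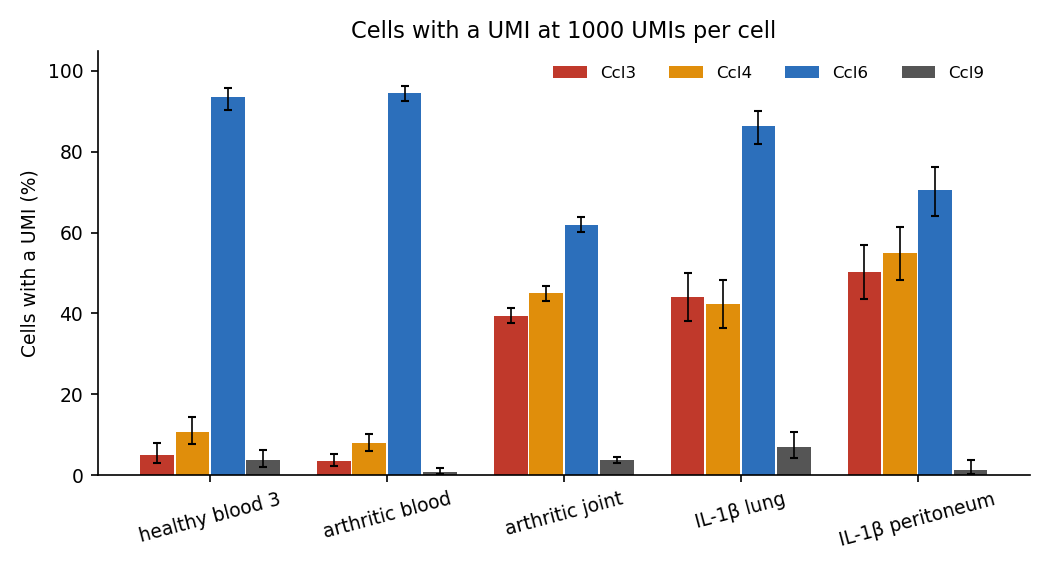
Percent of neutrophils with at least 1 UMI of each member after thinning to 1000 UMIs per cell, in the 5 pools of the inflammation library, with exact binomial 95% intervals. Ccl3 and Ccl4 lie at or below 10.7% in blood and at or above 39.4% in the 3 inflamed sites, and Ccl6 lies at 93.5% or more in blood and at 61.9% in the joint.

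Production was uneven between cells. In the joint 222 of 2857 cells (7.77%) held 50% of the Ccl3 UMIs and 170 (5.95%) held 50% of the Ccl4 UMIs, while 432 cells (15.1%) were needed for Ccl6. In the lung 18 cells held 50% of the Ccl3 UMIs and 16 of the Ccl4 UMIs, and in the peritoneum 31 and 22 cells did. A single lung cell held up to 203 Ccl3 or 406 Ccl4 UMIs, and a single joint cell up to 126 or 325. In the blood of untreated mice no cell held more than 2 Ccl3 or 5 Ccl4 UMIs, and in arthritic blood none more than 5 or 7. The tissue levels of this pair therefore came from a minority of cells with very high counts beside many with a few.

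Ccl3 and Ccl4 were detected in the same cells more often than their shares would give if they were unrelated. At 1000 UMIs, 715 joint cells carried both where 484.6 would be expected from the product of the shares, and 66.3% of Ccl3-positive cells had Ccl4 against 31.0% of Ccl3-negative cells. In the lung 67 cells carried both where 53.3 would be expected, with Ccl4 in 53.2% of Ccl3-positive and 33.8% of Ccl3-negative cells. In the peritoneum 80 cells carried both where 63.8 would be expected, with Ccl4 in 69.0% and 40.9%. These are descriptions of cells of a single pool each, with no test between conditions.

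In blood the counts were too small at 1000 UMIs to show such an excess. Both genes were then in 1 cell of untreated blood, where 1.93 would be expected, and in 5 cells of arthritic blood, where 1.89 would be, and a second random draw gave 3 and 1 cells. At full depth 14 cells of untreated blood carried both where 14.0 would be expected, and 21 cells of arthritic blood where 19.99 would be. The correlation of log counts between Ccl3 and Ccl4 over thinned cells was 0.511 in the joint (2734 cells), 0.437 in the peritoneum (231 cells) and 0.352 in the lung (286 cells). In the same cells Ccl6 had correlations of -0.109, -0.151 and 0.0911 with Ccl3, all weak. Cells of a pool share a library and its free RNA.

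**Figure D4:**
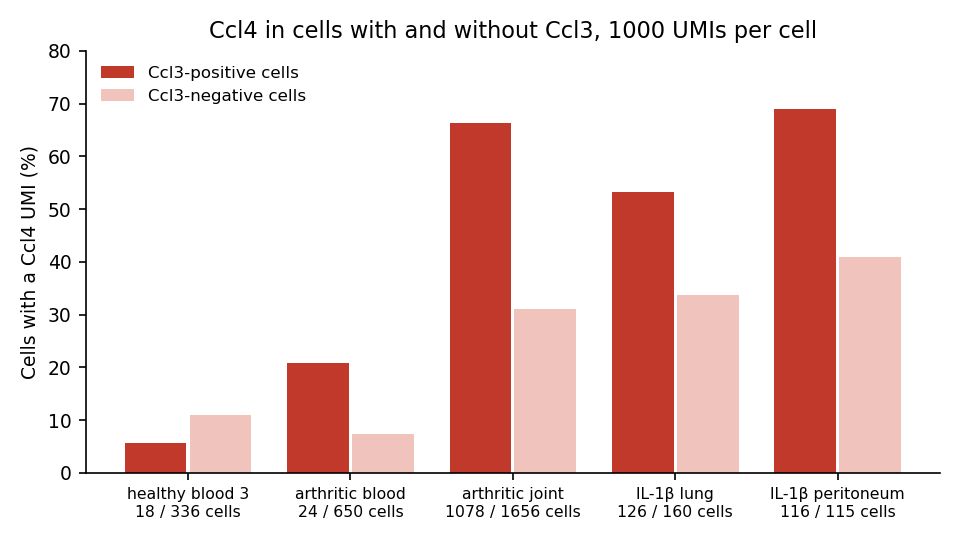
Percent of cells with a Ccl4 UMI among cells with Ccl3 (dark) and without Ccl3 (light) after thinning to 1000 UMIs per cell, with the number of cells of each kind under each pair. In joint, lung and peritoneum Ccl4 is found in 53.2% to 69.0% of Ccl3-positive cells and in 31.0% to 40.9% of the rest, whereas the blood pairs rest on 18 and 24 Ccl3-positive cells.

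Cells were then set side by side by the Ccl3 and Ccl4 they carried, with CPM computed without these 2 genes. Of the joint cells, 41.8% had no UMI of either in 1000, 32.2% had 1 to 4, 19.8% had 5 to 19 and 6.18% had 20 or more, with median depths of 3542 to 3595 UMIs throughout. Ccl6 was lower with each step, at 1977, 1682, 1482 and 1176 CPM. Ccrl2, an atypical receptor that binds chemerin, was higher with each step, at 279, 682, 1080 and 2163 CPM. Cxcl2, a neutrophil-attracting CXC chemokine, gave 5352, 6901, 10392 and 15199 CPM, and Tnf gave 28.6, 54.0, 93.8 and 138 CPM. Of 13 activation transcripts, 7 were higher with each step (Atf3, Cd14, Cxcl2, Il1rn, Nfkbia, Tnf and Tnfaip3) and 6 were not (Cebpb, Egr1, Fos, Icam1, Il1b and Nfkbiz), with Il1b at 8234, 6505, 7558 and 8828 CPM and Fos at 1189, 952, 964 and 1249 CPM. All but Icam1 reached 50 CPM over these cells, and of all 2271 genes that did, 16.2% were higher and 21.7% lower with each step. Ccr1, a receptor of Ccl3, Ccl6 and Ccl9, was also higher with each step, though by less than Ccrl2, at 1446, 1520, 1666 and 1796 CPM.

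The other sites shared part of this. In the lung Cxcl2 gave 10677 CPM in the 106 cells with neither ligand and 36603 CPM in the 31 cells with 20 or more UMIs, yet Ccl6 was not lower there, at 4358 and 5407 CPM. In the peritoneum Ccl6 gave 2854 CPM in 68 cells with neither and 1768 CPM in 18 cells with 20 or more, and Cxcl2 gave 4099 and 8546 CPM. The classes between did not follow at every step. Cxcl2 in the lung was 9984 CPM at 1 to 4 UMIs, below the cells with neither. Cxcl2 in the peritoneum was 9283 CPM at 5 to 19 UMIs, above the top class. Ccl6 there was 1898 CPM at 1 to 4 and 1973 CPM at 5 to 19 UMIs. Ccl9 was highest in the top class of the joint, 93.0 CPM against 42.2 CPM with neither, and of the lung, 256 against 95.2 CPM. The lung value came from 36 UMIs in 31 cells, where a single lung cell held up to 32 Ccl9 UMIs, so it may rest on few cells. The 18 cells of the top class of the peritoneum, with no UMI of it and an exact Poisson interval up to 57.2 CPM, are too few to compare.

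**Figure D5:**
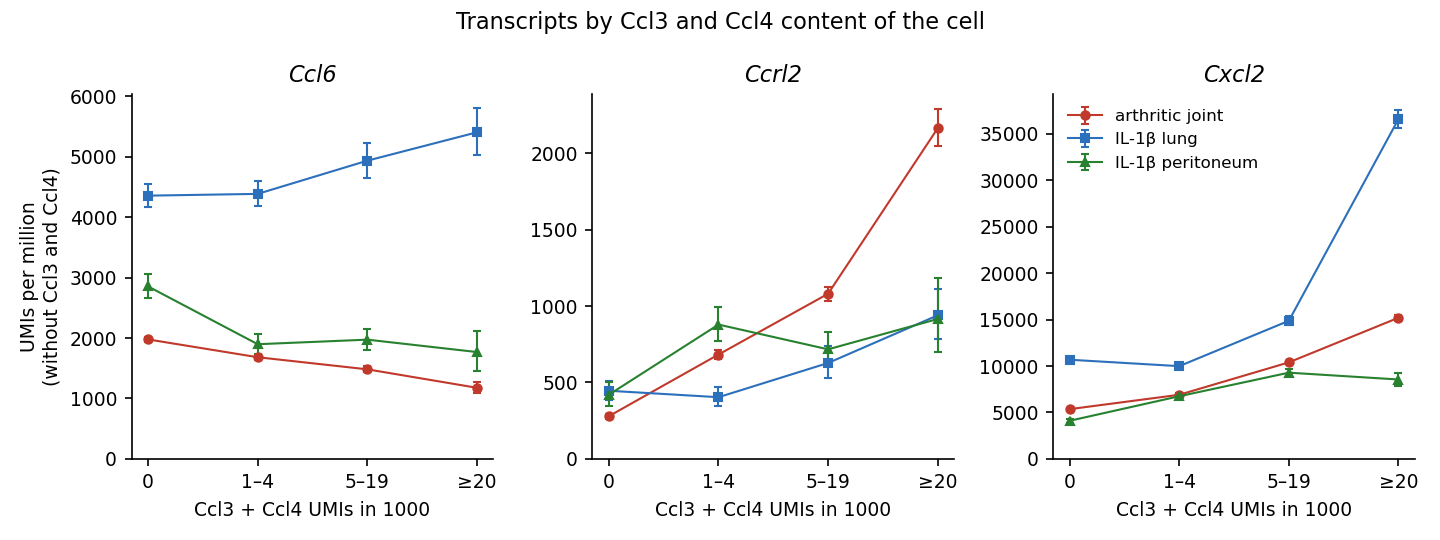
Level of Ccl6, Ccrl2 and Cxcl2 (CPM, computed without Ccl3 and Ccl4) in cells grouped by their Ccl3 and Ccl4 UMIs in 1000, for joint, lung and peritoneum, with exact Poisson 95% intervals. In the joint Ccl6 goes from 1977 to 1176 CPM and Ccrl2 from 279 to 2163 CPM across the classes, while Ccl6 in the lung goes from 4358 to 5407 CPM.

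The reference population that a cell resembled most also separated the members. Of the joint cells, 2260 were assigned to neutrophils of arthritic synovial fluid (GN.Arth.SynF) and gave 3646 CPM of Ccl4, 1417 CPM of Ccl3 and 1597 CPM of Ccl6. The 255 joint cells assigned to blood neutrophils (GN.Bl) gave 288 CPM of Ccl4, 153 CPM of Ccl3 and 3199 CPM of Ccl6, which set them between the blood pools and the cells of the first class. Joint cells assigned to peritoneal neutrophils after urate crystals (GN.UrAc.PC, 96 cells) had the highest Ccl9 of the joint, 181 CPM. In the blood of untreated mice 149 cells received that same class at a median of 590 UMIs and gave 325 CPM of Ccl4 and 1739 CPM of Ccl6, against 122 and 4832 CPM in the 353 cells assigned to blood at a median of 2854 UMIs. The classes were assigned from the same transcripts, so these differences are not independent of the assignment.

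Among the other members of the pathway, 20 further CC ligand symbols were listed in the files, in 26 entries since some have numbered copies, and 1 of them passed the size threshold at any site. Ccl2, a ligand of Ccr2 that attracts monocytes, gave 522 UMIs and 50.7 CPM in the joint against 1 UMI in the blood of untreated mice, a ratio of 57.0 (10.2 to 2257), and 3 UMIs in the lung and 1 in the peritoneum. Of 12 receptors, Ccrl2 was higher at all 3 sites, at 680.7, 514.7 and 669.4 CPM in joint, lung and peritoneum against 22.2 CPM. Ccr1 was at 1540, 3074 and 1572 CPM against 931 CPM, past 2-fold in the lung alone with a ratio of 3.30 (3.08 to 3.54). In the healthy tissues Ccr1 was also lower in bone marrow than in blood, with a log2 fold change of -1.23 ± 0.25 (edgeR, adjusted p = 0.0146), the 1 receptor called of 4 tested. The 1 further ligand tested there, Ccl5, which T and NK cells express, was lower in bone marrow as well, by a log2 fold change of -3.42 ± 1.00 (edgeR, adjusted p = 0.0476). These calls stand against the 11.4% of all genes called lower, and both were lost without blood of run 2, where edgeR called 0 genes (1948 at an unadjusted p under 0.05).

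The same 13 transcripts of innate activation were compared between the pools. In the joint 10 of them were at least 2-fold higher than in blood of untreated mice and none lower, in the lung 11 were higher and none lower, and in the peritoneum 11 were higher and 2, Fos and Atf3, lower. Over all genes the shares were 12.2% higher and 20.3% lower in the joint, 14.4% and 44.7% in the lung, and 14.5% and 45.5% in the peritoneum. Cxcl2 had ratios of 35.3, 67.3 and 32.2 in joint, lung and peritoneum, and Cd14, the co-receptor of lipopolysaccharide, 32.6, 86.3 and 53.5. Tnf had its highest ratio in the peritoneum, 27.3 (15.4 to 53.6), where neither Ccl3 nor Ccl4 had theirs. In arthritic blood no gene of the list passed both the 2-fold and the 50 CPM limit, and Icam1, at 9.28 against 18.7 CPM, had a ratio of 0.497 (0.267 to 0.934).

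Over the 11 sums, the transcripts whose log2(CPM + 1) followed Ccl3 most closely were Ell2 (Pearson's r = 0.988), Hspa4l (0.986) and Basp1 (0.986) among 2022 genes, and those of Ccl4 were Ddx3y (0.991), Trem1 (0.990) and Tiparp (0.984). Ccl3 and Ccl4 had r = 0.946 with each other, and Ccl6 had r = 0.0902 with Ccl3 and 0.192 with Ccl4. Nearest to Ccl6 were Iscu (0.957), Fam174a (0.931) and Cox8a (0.921), and among the nearest to Ccl9 were Ccr1 (0.861) and Tlr4 (0.855). Pools of 1 library share its chemistry, which by the study's methods is a later version than that of the healthy libraries. For Ccl3 and Ccl4, which were high in the inflamed sites alone, the values mostly describe the division between those sites and the rest. Within the joint the neighbours of Ccl3 and of Ccl4 began with each other (0.511), followed by Cxcl2 (0.311 and 0.286), Csf1 (0.271 and 0.248) and Ccrl2 (0.262 and 0.242). Those of Ccl6 were Tmsb4x (0.263) and Retnlg (0.247), and no gene was above 0.0969 for Ccl9.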

How the data were processed

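Single-cell RNA-seq was carried out on sorted mouse neutrophils in 6 healthy libraries and 1 hashtagged inflammation library. The authors deposited UMI counts per gene and cell, without normalization, made with Cell Ranger on mm10 according to the submitters' processing notes. The labels name the 10X chemistries and instrument together for all libraries, and the study's methods name another instrument. Those methods give a chemistry for the healthy tissues and a later version of it for the inflammation library. Chemistry therefore cannot be told apart from that division, and it was not used as a term. Hashtag doublets were removed by the authors from the inflammation library, and no doublet caller was run here. The deposited files of run 1 list only genes with a UMI, and a member without a listing was taken as 0 UMIs.

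Counts of neutrophils were summed per library and tested with edgeR 4.0.16 (R 4.3.3) by quasi-likelihood, TMM factors and filterByExpr, with tissue and run as terms, over the 7539 of 9112 genes common to both runs that passed, at a false discovery rate of 0.05. The script was checked on simulated counts with known changes. DESeq2 1.42.0 was an alternative. Same-run libraries come from the same mice, and their deviations from the tissue means correlated at 0.534, 0.476 and 0.615, so run was kept as a block. Inflamed pools were compared by CPM ratios with exact conditional intervals and no test. Cells were thinned to 500 (healthy) or 1000 (inflammation) UMIs with seed 1. Python 3.11.15 with SciPy 1.17.1 was used for the rest.

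The genes named are the 4 members, the other CC ligands and 12 receptors, 13 activation transcripts, and, for each member, the 3 genes most correlated with it over the 11 sums and the 5 over joint cells. 1 of these genes is not reported here. Members and lists were chosen with earlier results of these data known. Alternatives varied the scaling, filter, block, library left out, cell rule, thinning and UMI threshold. Nothing says that a pool's mice can be separated, so the spread is between pools of 3 mice. Motif matches are to the letters given, with no mismatch, and promoter sequences are from RefSeq.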

Additional observations from a re-analysis of the deposited data

Results flagged for a closer look

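Cells outside the neutrophil rule carried some of the members. In blood of run 1, 52 Nkg7-positive cells gave 280.4 CPM of Ccl3 and 1091 CPM of Ccl4, against 7.49 and 5.24 CPM in the neutrophils, from 28 and 109 UMIs that lay in 5 and 8 cells. In the same library, 231 other cells with S100a8 and S100a9 under 3% of UMIs gave 571 CPM of Ccl9, against 23.96 CPM in the neutrophils. Cells of that kind gave 197 CPM of Ccl9 in spleen of run 1 and 807 CPM in bone marrow of run 2, against 4.58 and 9.45 CPM in the neutrophils. Nkg7-positive cells gave 156 CPM of Ccl9 in bone marrow of run 1 and 91.1 CPM in bone marrow of run 2. These were 54 and 79 deep cells, with medians of 11054 and 6691 UMIs. With no condition on Nkg7 the rule took 1206 marrow cells in place of 1164 in run 1, and 3426 in place of 3383 in run 2. Most of these Nkg7-positive marrow cells thus had at least 3% of UMIs from S100a8 and S100a9. Summed over each whole class of cells with S100a8 and S100a9 under 3%, monocyte markers gave 3631 CPM in blood of run 1, 1396 CPM in spleen of run 1 and 4378 CPM in bone marrow of run 2, against 636, 1151 and 1020 CPM in the neutrophils. In the Nkg7-positive cells of bone marrow they gave 2014 CPM in run 1 and 1025 CPM in run 2, against 1349 and 1020 CPM.

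Ccl9 had a ratio to the blood of untreated mice of 3.84 (2.62 to 5.79) in the lung and 0.759 (0.418 to 1.35) in the peritoneum under the same dose of IL-1β. The peritoneal value rests on 21 against 33 UMIs, its interval holds 1, and it was 1.03 as a mean over cells and 1.38 relative to the median gene, where the lung gave 4.32 and 6.87, so that a difference in direction is not shown. With 1 pool per site the difference was not tested, and 3 lung cells held 50% of the lung UMIs. No library stood out in the 4 healthy groups of values examined for an outlying one.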

How the results depend on the processing

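Most fold changes kept their direction, while the number of genes called and several calls moved. For bone marrow against blood, 1638 genes were called, against 1036 with DESeq2, 861 without cells carrying a marker of another type, 948 in granule-low cells, and 0 (without blood replicate 2) to 2854 (without spleen replicate 2) with 1 library left out, with 41 without blood replicate 1 and 782 without bone marrow replicate 2. For bone marrow against spleen, 171 became 424 without the count filter, 677 without marker-bearing cells, 870 in granule-low cells, and 0 (without either blood replicate) to 1000 (without spleen replicate 1) with 1 library left out, with 715 without bone marrow replicate 1. For spleen against blood, 5 became 20 with DESeq2, 58 without the filter, 17 at 10% S100a8 and S100a9, 14 without marker-bearing cells, 35 in granule-low cells, and 0 (without either blood replicate) to 1000 (without spleen replicate 2) with 1 library left out, with 208 and 197 without bone marrow replicate 1 and 2. Where edgeR called 0 genes with 1 library left out, 323 to 1948 genes had an unadjusted p under 0.05.

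Without the replicate block, the pairing by run, edgeR called 25, 0 and 1 genes in the 3 comparisons, with 1931, 610 and 446 at an unadjusted p under 0.05.

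Several directions turned. Without marker-bearing cells the log2 fold changes in bone marrow against blood were 0.13 for Ccl6 and 0.033 for Ccl9, and in granule-low cells 0.33 and 0.18. Ccl6 in bone marrow against spleen turned to 0.048 and 0.27, and in spleen against blood to 0.080 and 0.065, in these settings. With 1 library left out, Ccl4 in spleen against blood ran from -1.09 to 0.33, the latter without spleen replicate 2. Among the inflamed pools, Ccl4 in lung against peritoneum turned from 1.25 to 0.935 without the 5% of cells richest in it, Ccl9 in peritoneum against blood from 0.759 to 1.03 (mean over cells) and 1.38 (relative to the median gene), Ccl6 in arthritic against untreated blood from 0.899 to 1.13 (relative to the median gene), and Ccl6 in lung against blood from 0.977 to between 1.02 and 1.75 in 4 settings. DESeq2 did not call Ccl9 in bone marrow against blood (adjusted p = 0.309) and called Ccl6 against spleen (adjusted p = 0.0140). Lung against peritoneum had 1 member past 2-fold, not 2, without marker-bearing cells, without the 5% of cells richest in the member, or in granule-low cells. The share of joint cells with Ccl3 was 49.3% at 2000 UMIs, 57.8% unthinned and 24.4% at 2 or more UMIs, and the share of them with Ccl4 was 69.9% at 2000 UMIs and 74.7% unthinned. Ratios relative to the median gene, granule-low cells in the inflamed pools and the split without Lcn2 were added after seeing the data. Over all settings of single members, tested values kept direction and call, or untested ones moved within their error, in 280 cases, 121 untested values moved by more than that, 11 calls were gained, 14 were lost and 9 tested directions turned. Depth limits Ccl3 in the healthy tissues, where the neutrophils of no library held more than 10 UMIs.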
